A study of Mus musculus with 16 samples.

Results

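Transcripts of the cyclins and of the kinases they activate were examined in lung adenocarcinomas and metastases of K-ras and p53 mutant mice. The genes were Ccna2, Ccnb1, Ccnb2, Ccnd1, Ccnd2, Ccnd3, Ccne1, Ccne2, Cdk1 and Cdk2, and every probe set that the platform annotation gives to 1 of these symbols alone was taken, with the older name Cdc2a read as Cdk1. This gave 18 of the 22626 probe sets that are not controls, and 9 of the 10 genes, among 12393 genes with a probe set. All 16 tumors came from mice heterozygous for a latent K-ras allele and a mutant p53 allele (p53R172H∆g/+ K-rasLA1/+), so primary tumors and metastases carry both alleles, and no tumor without them was compared. K-rasLA1 is a latent allele that becomes active by a sporadic recombination event in single cells of the body, and p53R172H∆g is present in the germ line. The tumors were 7 primary lung adenocarcinomas, 1 from each of 7 mice, and 9 metastases from mice 1 to 4, which are called the matched mice here. Mouse 1 gave a liver, an inguinal and a subcutaneous or body wall metastasis, and mouse 2 gave a liver metastasis. Mouse 3 gave a mediastinal lymph node, a subcutaneous and a heart metastasis, and mouse 4 gave a mediastinal lymph node and a parietal pleura metastasis. The tumor of mouse 6 came from a female and the other 15 from males, and the labels give no age or strain. Each tumor was hybridized to 1 array, and values are intensities in arbitrary units (a.u.) on a linear scale, with a 25th percentile of 24.3 over all probe sets and arrays.

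Cyclins are the regulatory partners of the cyclin-dependent kinases. The D-type cyclins are induced by growth signals such as the Ras pathway in G1, bind Cdk4 and Cdk6, and start the inactivation of the retinoblastoma protein. E-type cyclins with Cdk2 then carry the cell into S phase, cyclin A2 acts with Cdk2 and later with Cdk1 in S phase and G2, and B-type cyclins with Cdk1 drive entry into mitosis. Transcripts of Ccna2, Ccnb1, Ccnb2 and Cdk1 accumulate late in the cycle and are low in resting cells, whereas those of the D-type cyclins follow growth signals more than the position in the cycle. In a piece of tumor, more cycling cells and more RNA per cycling cell cannot be told apart.

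Late cell cycle genes are textbook examples of promoters with CCAAT boxes and a cell cycle homology region, and G1/S genes of promoters with E2F sites, so the proximal promoters of 4 genes that differ in this respect are shown. They are RefSeq sequences of build GRCm38.p6 that run 5′ to 3′ from 250 bases before the start site to 50 bases after it. All 4 lie on the minus strand, at chr10:69352863-69353162 (Cdk1), chr9:70421505-70421804 (Ccnb2), chr10:128705002-128705301 (Cdk2) and chr7:38107441-38107740 (Ccne1). Capitals mark matches to 3 kinds of motif, each read on both strands. The CCAAT box is spelled CCAAT, and the cell cycle homology region either TTTGAA or else the variant spelled TTCGAA. For E2F the letters searched were TTGGCGC and the related TTCCCGC, together with the forms TTGCCGC and, with another inner base, TTCGCGC.
Cdk1: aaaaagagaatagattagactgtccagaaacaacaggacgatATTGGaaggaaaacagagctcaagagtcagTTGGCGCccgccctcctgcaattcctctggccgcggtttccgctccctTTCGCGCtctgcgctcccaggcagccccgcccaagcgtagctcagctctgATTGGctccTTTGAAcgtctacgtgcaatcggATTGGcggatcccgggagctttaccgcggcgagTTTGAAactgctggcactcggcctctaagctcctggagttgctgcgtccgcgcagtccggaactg
Ccnb2: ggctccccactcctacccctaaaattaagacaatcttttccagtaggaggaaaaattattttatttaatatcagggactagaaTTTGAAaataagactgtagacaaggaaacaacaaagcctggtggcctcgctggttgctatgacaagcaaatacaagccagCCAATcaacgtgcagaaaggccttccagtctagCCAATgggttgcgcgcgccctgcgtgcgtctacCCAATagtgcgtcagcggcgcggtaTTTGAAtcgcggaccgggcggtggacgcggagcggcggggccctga
Cdk2: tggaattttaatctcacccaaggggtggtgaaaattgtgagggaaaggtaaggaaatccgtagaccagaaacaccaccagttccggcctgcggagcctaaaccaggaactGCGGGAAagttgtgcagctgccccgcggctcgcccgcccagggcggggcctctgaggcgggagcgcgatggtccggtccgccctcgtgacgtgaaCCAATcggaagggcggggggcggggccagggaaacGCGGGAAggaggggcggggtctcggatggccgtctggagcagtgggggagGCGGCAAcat
Ccne1: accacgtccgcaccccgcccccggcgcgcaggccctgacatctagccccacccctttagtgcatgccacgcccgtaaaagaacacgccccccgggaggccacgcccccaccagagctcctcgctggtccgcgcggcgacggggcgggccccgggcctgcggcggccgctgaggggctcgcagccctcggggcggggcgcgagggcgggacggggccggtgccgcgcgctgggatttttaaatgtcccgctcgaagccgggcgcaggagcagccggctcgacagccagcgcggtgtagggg

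The promoters of Cdk1 and Ccnb2 both held CCAAT boxes and the cell cycle homology region. Each had 3 CCAAT boxes and 2 matches to the cell cycle homology region, and the 300 bases of Cdk1 also had 2 E2F matches while those of Ccnb2 had 0. In Ccnb2 the CCAAT boxes began 87, 54 and 21 bases upstream of the start site, and in Cdk1 208, 80 and 48 bases upstream. Ccnb1, the other late gene in the table, had 2 CCAAT boxes, 0 matches to the cell cycle homology region and 1 E2F match that overlaps a CCAAT box. The Cdk2 promoter had 3 E2F matches and 1 CCAAT box without a cell cycle homology region, and in the window shown for Ccne1 none of these letters were found, which says nothing about the factors that bind there. Of the 2 promoters of Ccnd3, 1 had a CCAAT box and neither had a match to the other motifs. Of all 32851 promoters of this length in the same table, 37.4% held a CCAAT box, 19.2% the cell cycle homology region, 9.57% an E2F match and 7.52% both a CCAAT box and the cell cycle homology region. No matches overlapped in the 4 windows shown, and a match is a description of the letters, not of a bound site. Promoters of 6 of the 10 genes were in the table, and Ccna2, Ccnd1, Ccnd2 and Ccne2 were not among them.

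Cdk1 and Ccna2 were higher in the metastases than in the primary tumors over all 16 tumors, while Ccnb2 did not pass the test. Cdk1, the kinase of mitotic entry, measured 101, 125, 154 and 95.1 in the primary tumors of mice 1 to 4 and 104, 135 and 124 in those of mice 5 to 7. In the metastases it measured 763 (inguinal), 480 (liver) and 567 (body wall) in mouse 1, 756 in mouse 2, 309 (lymph node), 281 (heart) and 243 (subcutaneous) in mouse 3, and 145 (lymph node) and 156 (pleura) in mouse 4. Every metastasis exceeded the primary tumor of its mouse, and among all 16 tumors the groups overlapped only through the lymph node metastasis of mouse 4, which lay below the primary tumor of mouse 3. Against the matched primary tumors, with the mouse as a block, Cdk1 was 1.60 ± 0.31 log2 units higher (SE), a fold of 3.04 with an adjusted p of 0.0750. Over all 16 tumors, with the mouse as a random block, Cdk1 rose by 1.57 ± 0.30 (adjusted p = 0.0173). Without the primary tumor of mouse 1 the adjusted p of this difference was 0.0633.

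Cyclin A2 was higher as well, but unlike for Cdk1 the metastases of mouse 3 overlapped those of mice 1 and 2. Ccna2 (probe set 1417910_at) measured 58.6, 79.5, 133 and 59.6 in the matched primary tumors and 81.2, 50.7 and 106 in the others. Its metastases measured 409 (inguinal), 176 (liver) and 282 (body wall) in mouse 1, 247 in mouse 2, 354 (lymph node), 220 (heart) and 211 (subcutaneous) in mouse 3, and 109 (lymph node) and 110 (pleura) in mouse 4. Again all 9 metastases exceeded their own primary tumor, and the 2 metastases of mouse 4 were the lowest. The difference was 1.41 ± 0.28 log2 units in the matched tumors (adjusted p = 0.0795), and over all 16 tumors Ccna2 rose by 1.45 ± 0.26 (adjusted p = 0.0126). The dimmer probe set 1417911_at gave 1.17 ± 0.37 in the matched tumors with 8 of 9 metastases above their primary tumor, and an adjusted p of 0.0559 over all 16.

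Cyclin B2, a partner of Cdk1 in mitosis, was less regular. Ccnb2 measured 45.0, 52.3, 102 and 57.6 in the matched primary tumors and 32.1, 25.8 and 34.9 in the others. In mouse 1 it reached 149 (inguinal), 107 (liver) and 122 (body wall), in mouse 2 133, in mouse 3 119 (lymph node), 177 (heart) and 102 (subcutaneous), and in mouse 4 44.8 (lymph node) and 57.2 (pleura). The 4 metastases of mice 1 and 2 all lay above all 7 primary tumors, whereas in mouse 4 both metastases were below the primary tumor. The matched difference was 0.71 ± 0.27 log2 units with 6 of 9 metastases higher (adjusted p = 0.340), and over all 16 tumors it was 1.06 ± 0.28 (adjusted p = 0.0785). Over all 16, leaving out the primary tumor of mouse 3, the highest of the primary tumors, brought the adjusted p to 0.0351, and leaving out the lymph node metastasis of mouse 4 brought it to 0.0404.

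For Ccnb1, the main mitotic cyclin, the annotation used here lists no probe set. A published gene list for these tumors gives the name cyclin B1 to a dim probe set, whose probes can also match related copies of the gene, and since that list was chosen on these tumors it is no independent evidence. The probe set measured between 5.98 and 33.1 in the 7 primary tumors, with a median of 15.7, and 6 of them lay under the 25th percentile of intensities. In the 9 metastases it measured between 18.4 and 87.0, with a median of 43.6, and 4 lay under that percentile. The matched difference was 1.68 ± 0.46 log2 units (adjusted p = 0.183), with 8 of 9 metastases higher, and this probe set is left out of the counts that follow.

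**Figure D1:**
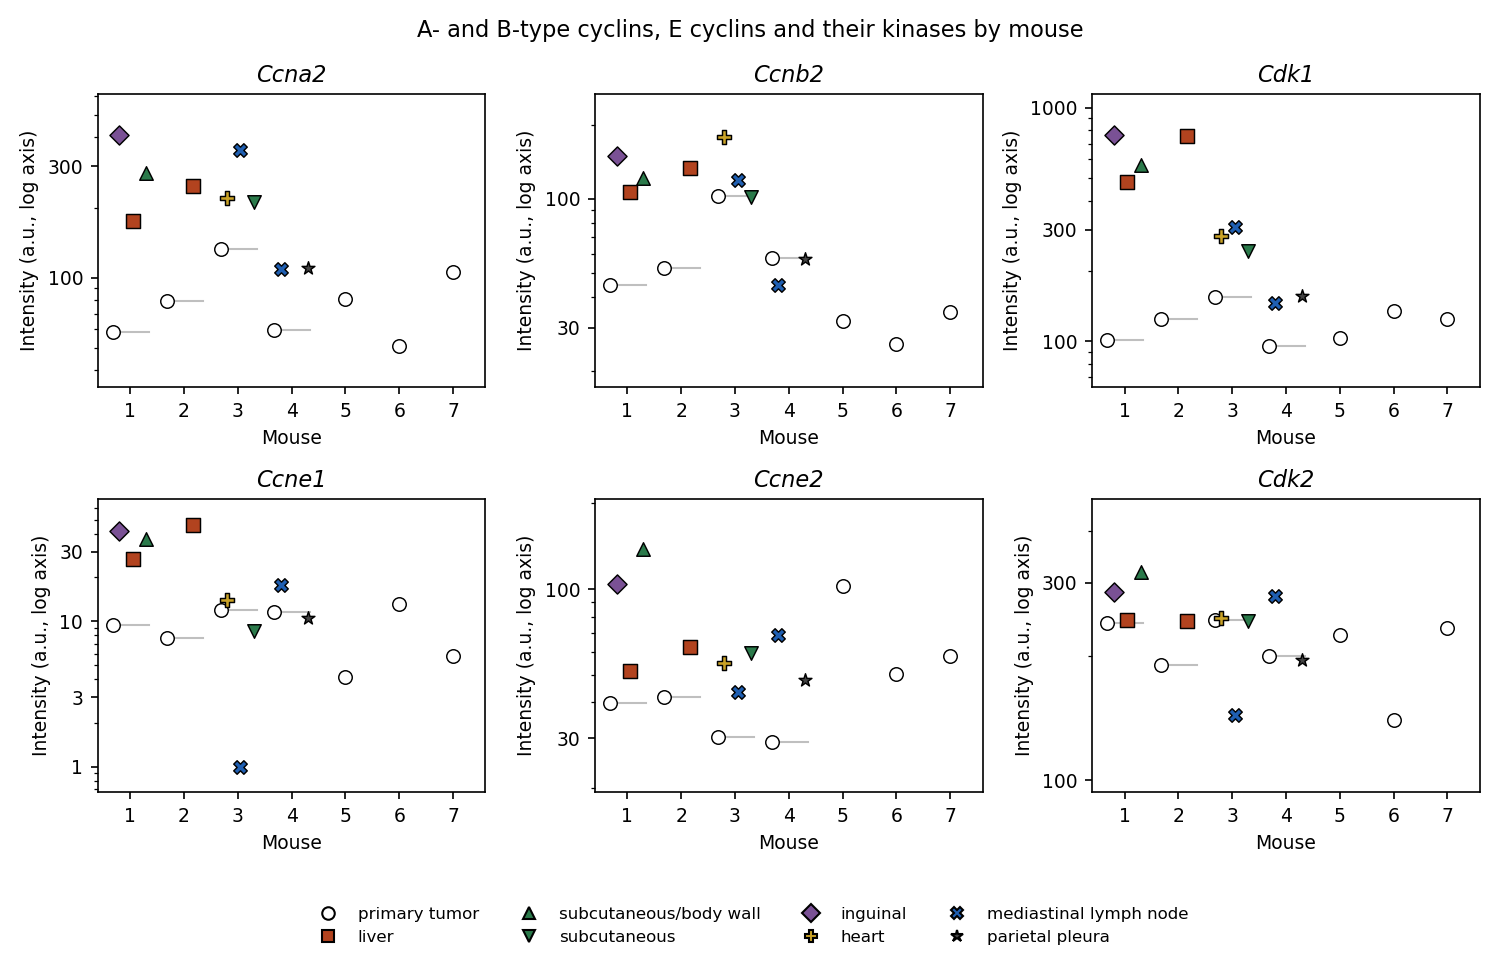
Intensity (a.u., log axis) of Ccna2, Ccnb2, Cdk1, Ccne1, Ccne2 and Cdk2 in each of the 16 tumors, by mouse. Open circles are primary tumors, filled symbols are metastases by site, and grey lines mark the level of the matched primary tumor. Ccna2, Cdk1 and Ccne2 lie above the line in 9 of 9 metastases, while Cdk2 stays near it.

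Of the E-type cyclins, Ccne2 was above the matched primary tumor in all 9 metastases, with 39.9, 41.9, 30.3 and 29.0 in the matched primary tumors. Its metastases measured 104 (inguinal), 51.7 (liver) and 138 (body wall) in mouse 1, 62.7 in mouse 2, 54.9 (heart), 43.6 (lymph node) and 59.6 (subcutaneous) in mouse 3, and 69.2 (lymph node) and 47.8 (pleura) in mouse 4. All 9 metastases lay above all 4 matched primary tumors. The primary tumors of mice 5 to 7, however, measured 103, 50.2 and 58.0 and fell within the range of the metastases, so that the difference of 0.91 ± 0.24 log2 units in matched tumors (adjusted p = 0.177) became 0.60 ± 0.26 over all 16 (adjusted p = 0.340).

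Ccne1 was dim, with all 7 primary tumors and 5 of 9 metastases under the 25th percentile. It lay between 4.17 and 13.1 in the primary tumors, with a median of 9.40. The metastases of mouse 1 measured 41.6 (inguinal), 26.7 (liver) and 36.9 (body wall) and that of mouse 2 measured 46.1, whereas mice 3 and 4 gave between 1.00 and 17.7. The matched difference of 0.71 ± 0.74 log2 units (adjusted p = 0.784) was smaller than its error, and the lymph node metastasis of mouse 3 lay at the value of 1 to which lower intensities were raised. Cdk2, the kinase that cyclin E activates, measured 240, 190, 244 and 200 in the matched primary tumors and between 144 and 319 in the metastases. Its difference was 0.12 ± 0.18 log2 units (adjusted p = 0.869), with 6 of 9 metastases higher, and the groups overlapped throughout.

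The D-type cyclins showed no shift with tissue that passed a test. Ccnd1 (probe set 1417420_at), the D cyclin best known as a target of Ras signalling, measured 743, 1055, 1448 and 1259 in the matched primary tumors and 1504, 1984 and 1151 in the others. Its metastases measured 1202 (inguinal), 765 (liver) and 866 (body wall) in mouse 1, 219 in mouse 2, 1828 (heart), 1569 (lymph node) and 1444 (subcutaneous) in mouse 3, and 930 (lymph node) and 799 (pleura) in mouse 4. The liver metastasis of mouse 2 stood far below every other tumor, among the metastases those of mouse 3 were the highest, and the groups overlapped. The matched difference was −0.43 ± 0.33 log2 units (adjusted p = 0.683), with 5 of 9 metastases higher. Without the liver metastasis of mouse 2 it was −0.01 (adjusted p = 0.999), and over all 16 tumors it went from −0.47 to −0.13.

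The 3 probe sets of Ccnd1 did not agree fully. Over the 16 tumors 1417420_at and 1448698_at had a Pearson r of 0.93 on the log2 scale, while 1417419_at had r of 0.80 and 0.70 with them. On 1417419_at the primary tumors of mice 5 to 7 measured 2005, 3280 and 1596 and those of mice 1 to 4 measured 235, 225, 734 and 680, so these groups did not overlap there, whereas they did on the other probe sets. Of the 9 genes at their brightest probe set, 2 did not overlap between these 2 sets of primary tumors, Ccne2 with mice 5 to 7 higher and Ccnb2 with mice 5 to 7 lower, beside 20.0% of all probe sets. On 1417419_at 8 of 9 metastases lay above their primary tumor, but its matched difference of 0.15 ± 0.39 log2 units had an adjusted p of 0.927. Correlations over 16 tumors are given as descriptions, since tumors of 1 mouse share an animal and all arrays were normalized together.

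Ccnd2 split the tumors by mouse. On 1416122_at the matched primary tumors measured 1641, 250, 1197 and 1914 and the primary tumors of mice 5 to 7 measured 750, 232 and 252. Its metastases measured 3465 (inguinal), 2195 (liver) and 2581 (body wall) in mouse 1, 239 in mouse 2, 537 (heart), 627 (lymph node) and 979 (subcutaneous) in mouse 3, and 2797 (lymph node) and 2911 (pleura) in mouse 4. All 5 metastases of mice 1 and 4 were above their primary tumors and above every other tumor, and all 4 of mice 2 and 3 were below theirs on this probe set. The matched difference of 0.11 ± 0.26 log2 units (adjusted p = 0.917) is the balance of these opposite directions. The difference in mouse 2 was small, with a log2 ratio of −0.07, and on the other probe sets it lay between −2.85 and 0.45. The heart metastasis of mouse 3 was below its primary tumor on all 7 probe sets. The subcutaneous one was above it on 2 (0.77 and 1.01) and the lymph node one on 1 (0.23). In mice 1 and 4 there were exceptions as well. On 1416124_at the liver metastasis of mouse 1 (−0.45) and the lymph node metastasis of mouse 4 (−1.06) lay below their primary tumors. The body wall metastasis of mouse 1 did so on 1455956_x_at (−0.01). The other 6 probe sets of Ccnd2, 2 of them dim, had r between 0.69 and 0.99 with each other and with 1416122_at over the 16 tumors.

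Ccnd3 varied least among the D cyclins, with 212, 407, 233 and 332 in the matched primary tumors, 155, 111 and 230 in the others and between 168 and 337 in the metastases. It was lower than the primary tumor in 6 of 9 metastases, among them both of mouse 4, and the difference was −0.32 ± 0.23 log2 units (adjusted p = 0.668).

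**Figure D2:**
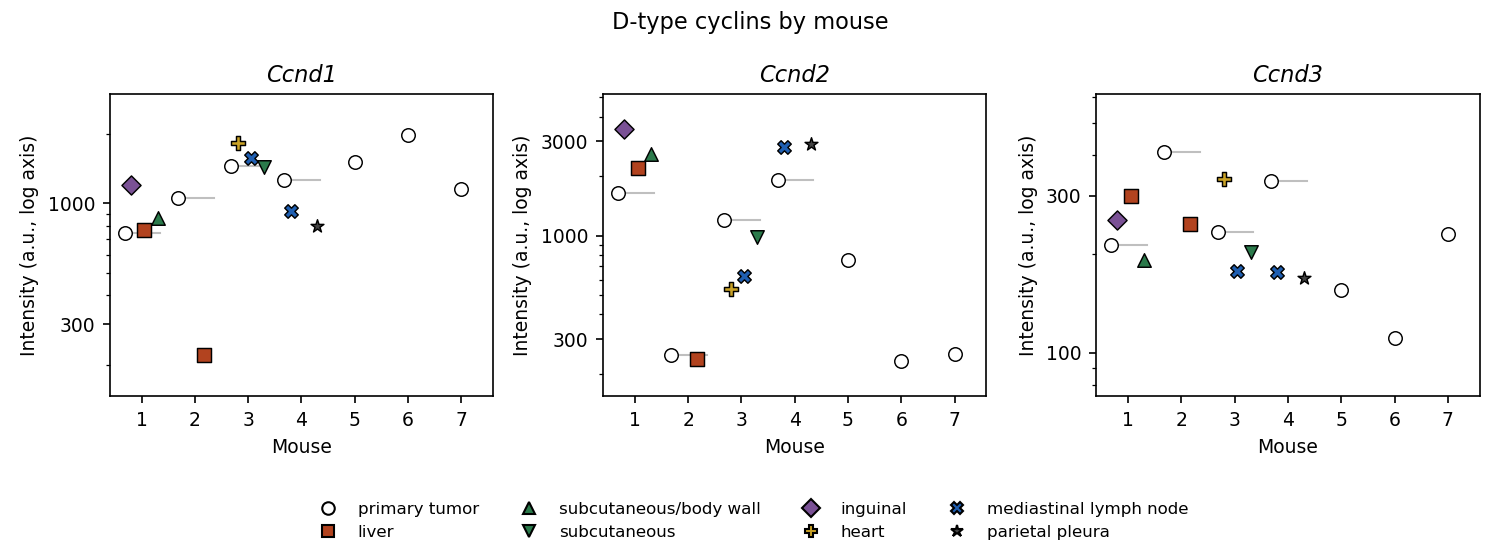
Intensity (a.u., log axis) of the D-type cyclins Ccnd1, Ccnd2 and Ccnd3 in each of the 16 tumors, by mouse. Open circles are primary tumors, filled symbols are metastases by site and grey lines mark the matched primary tumor; Ccnd2 lies above the line in mice 1 and 4 and below it in mice 2 and 3.

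Across the 9 measured genes, 7 were higher and 2 lower in the matched metastases, with a median difference of 0.71 log2 units beside −0.02 over all probe sets. None passed an adjusted p of 0.05 in limma, where 0.0133% of all probe sets passed in the higher direction. At an unadjusted p under 0.01, 3 genes were higher (Ccna2, Ccne2 and Cdk1) and 0 lower, beside 1.14% of all probe sets higher and 2.84% lower, and with an unadjusted threshold of 0.05 these counts became 4 and 0, beside 4.28% and 7.1%. For 3 of the 9 genes every metastasis exceeded its matched primary tumor (9 of 9), beside 1.81% of all probe sets. Over all 16 tumors, 2 of the 9 genes (Ccna2 and Cdk1) passed an adjusted p of 0.05, both higher, beside 0.283% of all probe sets. Sister metastases are set against the same primary tumor and both fits take them as separate replicates of the tissue difference, so the independent animals in the matched comparison are 4.

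The ratios of the G2/M genes were on average above those of the G1 genes. For each metastasis the log2 ratios to the primary tumor of its mouse were averaged over Ccna2, Ccnb2 and Cdk1 and, separately, over the 6 G1 and G1/S genes (the D cyclins, the E cyclins and Cdk2). The G2/M mean was above 0 in 9 of 9 metastases, from 0.37 in the lymph node metastasis of mouse 4 to 2.48 in the inguinal metastasis of mouse 1. The G1 mean was above 0 in 6 of 9, from −0.84 in the lymph node metastasis of mouse 3 to 0.97 in the inguinal metastasis of mouse 1. The lowest of these is carried by Ccne1, a dim probe set at the floor of 1 in that metastasis, and without Ccne1 the G1 mean there was −0.29.

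The G2/M mean exceeded the G1 mean in 9 of 9 metastases, by 0.12 in the lymph node metastasis of mouse 4 to 1.78 in mouse 2. In that lymph node metastasis the G2/M ratios lay within the range of the G1 ratios. The same held in the subcutaneous metastasis of mouse 3. The mean difference was 1.32 in mouse 1, 1.78 in mouse 2, 0.94 in mouse 3 and 0.36 in mouse 4, or 1.10 ± 0.60 log2 units over the 4 mice (SD). Within the G1 genes, the D cyclins averaged −0.12 with 3 of 9 metastases above 0, and the G1/S genes averaged 0.52 with 8 of 9 above 0. In 0 of the 9 metastases did every G2/M gene exceed every G1 gene. With Ccne1 left out, or with intensities raised to the 25th percentile, every G2/M gene exceeded every other G1 gene in 3 of 9, the inguinal and liver metastases of mouse 1 and the liver metastasis of mouse 2. No test was run on these averages.

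**Figure D3:**
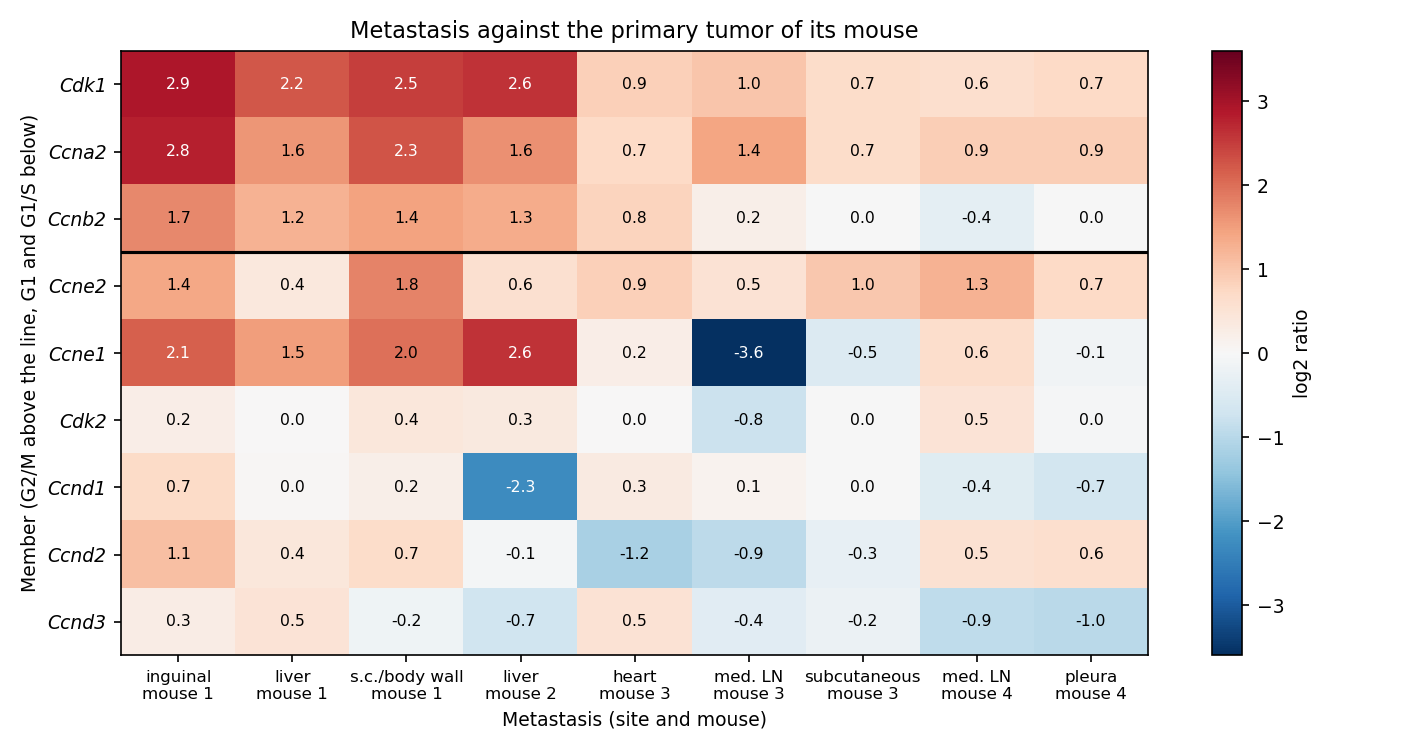
Log2 ratio of each metastasis to the primary tumor of its mouse for the 9 measured genes (rows), with G2/M genes above the black line; red is higher in the metastasis and blue lower. The rows of Cdk1 and Ccna2 are red throughout, from 0.61 to 2.91 and from 0.66 to 2.81, and the D cyclins are mixed.

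The second pattern was a difference between mice. Among the 9 metastases, Ccnd2, Cdk1 and Ccnd1 differed between the 4 mice in limma's moderated F test, with adjusted p of 0.0115, 0.0171 and 0.0179. These were 3 of the 9 genes, beside 4.42% of all probe sets. The highest and lowest means of a mouse were 3.58 log2 units apart for Ccnd2, 2.87 for Ccnd1 and 2.33 for Cdk1. Ccnb2 did not reach the threshold (adjusted p = 0.0863), nor did Ccna2 (0.211), Ccne1 (0.260), Ccne2 (0.505), Cdk2 (0.661) and Ccnd3 (0.666).

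The order of the mice was different for each of the 3 genes. Cdk1 was highest in mice 1 and 2 and lowest in mouse 4, Ccnd2 was highest in mice 1 and 4 and lowest in mouse 2, and Ccnd1 was highest in mouse 3 and lowest in mouse 2. Mouse 2 is represented by 1 metastasis, and without it the range of Ccnd1 over the mice was 0.90 log2 units (adjusted p = 0.0876), while Ccnd2 remained past the threshold with 2.05 (adjusted p = 0.0194). Without the lymph node metastasis of mouse 4, which leaves 1 metastasis of that mouse, 0 genes passed, with adjusted p of 0.0538 for Ccnd2, 0.0817 for Cdk1 and 0.0585 for Ccnd1, and without its pleural metastasis only Ccnd2 passed. Ccnd1 also lost its call without the lymph node metastasis of mouse 3 (0.0503) or the subcutaneous one (0.0551). By the labels the inguinal, heart and pleural sites occur in 1 mouse each, so that site and mouse cannot be told apart for them. The authors list the inguinal tumor of mouse 1 as a further body wall metastasis, and the label is kept here.

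Liver, lymph node and the subcutaneous or body wall site were each sampled in a pair of mice. The liver metastases of mice 1 and 2 measured 480 and 756 for Cdk1, 176 and 247 for Ccna2, 107 and 133 for Ccnb2, 765 and 219 for Ccnd1 and 2195 and 239 for Ccnd2. In the lymph node metastases of mice 3 and 4, Cdk1 measured 309 and 145, Ccna2 354 and 109, and Ccnb2 119 and 44.8. Ccnd1 measured 1569 and 930 there, and Ccnd2 627 and 2797. The body wall metastasis of mouse 1 and the subcutaneous metastasis of mouse 3 measured 567 and 243 for Cdk1. The same pair measured 282 and 211 for Ccna2, 122 and 102 for Ccnb2, 866 and 1444 for Ccnd1 and 2581 and 979 for Ccnd2. Ccnd2 was thus far apart at each of these sites, but each value is a single tumor and no test was run.

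Ccnd2 was ordered alike by mouse in primary tumors and metastases. Mouse 2 had the lowest Ccnd2 among the matched primary tumors and the lowest in the metastases, and mice 1 and 4 the highest in both. In all 13 tumors of the matched mice, with tissue in the model, Ccnd2 differed between the mice (adjusted p = 0.00450), whereas Cdk1 (0.126) and Ccnd1 (0.141) did not pass. This fit was chosen after seeing the data, and 9 of its 13 tumors are the metastases tested above. Cdk1 in the primary tumors spanned 95.1 to 154, a narrow range beside that of 145 to 763 in the metastases, and the mouse with the highest primary value, mouse 3, was not the one with the highest metastases.

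**Figure D4:**
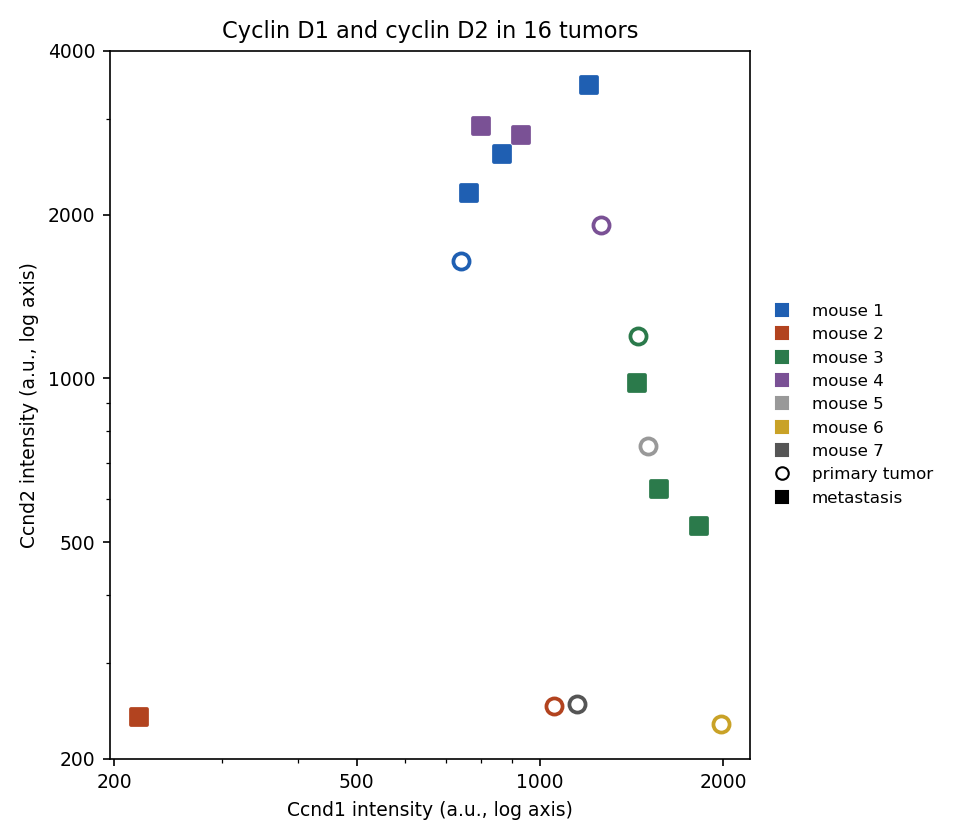
Ccnd1 against Ccnd2 intensity (a.u., log axes) in the 16 tumors, with mice by colour, primary tumors as open circles and metastases as filled squares. Tumors of mice 1 and 4 lie at the top. Those of mouse 3 and the primary tumors of mice 5 and 6 lie at the right. The liver metastasis of mouse 2 lies alone in the lower left corner at 219 and 239.

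Over the 16 tumors Ccna2, Ccnb2 and Cdk1 went together. Pearson r on the log2 scale was 0.88 between Ccna2 and Cdk1, 0.87 between Ccna2 and Ccnb2, and 0.80 between Ccnb2 and Cdk1. It was −0.02 between Ccnd1 and Ccnd2, 0.16 between Cdk1 and Ccnd2, −0.42 between Cdk1 and Ccnd1, and 0.64 between Cdk2 and Ccne1. Among 13048 probe sets with a mean intensity over 50, the genes closest to Cdk1 were Rrm2 (r = 0.98), the small subunit of ribonucleotide reductase, Nusap1 (0.98), a spindle protein, Ube2c (0.97), Cks2 (0.96) and Hmgb2 (0.96). Those closest to Ccnd1 were Rab5a (0.87), Tspo (0.87), Ahnak (0.86), Pgd (0.85) and Emc2 (0.84).

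Of 58 other cell cycle genes in 5 lists, 52 were measured, and 36 were higher and 16 lower in the matched metastases. None passed an adjusted p of 0.05, and 8 were higher and 0 lower at an unadjusted p under 0.01, beside 1.14% and 2.84% of all probe sets. All 7 proliferation markers were higher, 4 of them at that threshold, with a median of 0.81 log2 units beside −0.02 over all probe sets. The smallest difference of the 7 was that of Aurkb (0.14 ± 0.10). Among them Mki67, a protein of cycling cells, differed by 1.65 ± 0.35, Birc5, a mitotic survival factor, by 1.32 ± 0.25, and Top2a, a topoisomerase of S phase and mitosis, by 1.25 ± 0.29, each with 9 of 9 metastases above the primary tumor.

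The partners and activators of the kinases were divided, with 8 of 13 higher, 2 at an unadjusted p under 0.01 and a median of 0.14. These 2 were the kinase subunits Cks2 (1.38 ± 0.31) and Cks1b (0.97 ± 0.25), and cyclin F (Ccnf), a dim probe set, differed by 0.97 ± 0.40. The D cyclin partners Cdk4 and Cdk6 did not pass, with 0.49 ± 0.27 for Cdk4 (7 of 9 metastases higher, and 0.80 over all 16 tumors) and −0.17 ± 0.28 for Cdk6. Of the transcription factors 9 of 11 measured were higher with a median of 0.09, led by E2f8 (0.83 ± 0.35), Tfdp1 (0.70 ± 0.21), the partner of the E2F proteins, and E2f1 (0.50 ± 0.19).

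Of the genes of cyclin degradation 7 of 11 measured were higher with a median of 0.13. Ube2c, the ubiquitin conjugating enzyme of the anaphase-promoting complex, differed by 1.44 ± 0.42, and the complex subunits Cdc16 (0.38 ± 0.15) and Anapc5 (0.26 ± 0.16) by less. The kinase inhibitors and pocket proteins were balanced, with 5 of 10 higher, a median of −0.04 and 0 at an unadjusted p under 0.01. The p53 target Cdkn1a (−0.48 ± 0.31), Cdkn2d (−0.45 ± 0.31) and Cdkn2b (−0.38 ± 0.35) had the largest differences. Over all 16 tumors 4 of the 52 genes rose, Cks2, Tfdp1, Top2a and Birc5 (adjusted p = 0.0325, 0.0389, 0.0261 and 0.0263), beside 0.283% of all probe sets. Among the metastases 6 differed between mice, Cks1b, Cdkn2b, E2f8, Cdc23, Pcna and Top2a, beside 4.42%.

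Several lists of cell type markers differed between the tumors as well. The 7 markers of epithelium and lung adenocarcinoma were all measured and above the 25th percentile in at least 1 tumor. Their summed intensity was 18101 to 19026 in the matched primary tumors and 9386 to 13230 in the metastases, and all 7 were lower. The 7 normal lung markers, all lower as well, summed to 12918 to 31368 in the matched primary tumors, with mouse 3 lowest, and to 956 to 18696 in the metastases. The 5 endothelial markers, all lower too, summed to 759 to 1063 in the matched primary tumors and to 437 to 1026 in the metastases. Their part in the differences of Cdk1 and Ccna2 was not tested.

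The 4 measured hepatocyte markers were all higher in the matched comparison. Among the metastases they summed to 5816 to 7470 in mouse 1 at all 3 sites and to 4914 in mouse 2. The sums were 135 to 277 in mouse 3 and 1101 to 1671 in mouse 4, against 515 to 912 in the matched primary tumors. These are high in the 4 metastases that were highest in Cdk1, and not in the liver alone. In the same 4 metastases the 4 measured macrophage markers summed to 1159 to 1840. They summed to 2581 to 5046 in the other metastases and to 3018 to 4651 in the matched primary tumors. Of these markers 1 was higher and 3 were lower in the matched metastases. The 5 muscle markers, 4 higher and 1 lower in the matched metastases, summed to 1713 in the heart and 1099 in the inguinal metastasis. They summed to 756 in the subcutaneous metastasis of mouse 3 and to 207 to 265 in the matched primary tumors. Myh6 lay under the 25th percentile throughout. The 5 fibroblast markers, 3 of them higher and 2 lower in the matched metastases, summed to 10055 to 16687 in the metastases of mouse 3. Among the metastases Ccnd1 was highest in these. The sums were 2022 to 7456 in the other metastases and 1893 to 5107 in the matched primary tumors, with mouse 3 highest. Of the 7 measured lymphocyte markers, which include genes of cells that can divide in a lymph node, 5 were higher and 2 lower in the matched metastases. They summed to 447 and 437 in the lymph node metastases of mice 3 and 4, against 371 and 373 in the primary tumors of these mice. The sums were 323 to 414 in the other metastases, 348 to 384 in the matched primary tumors and 348 to 451 in all 7 primary tumors. Cd4 lay under the 25th percentile in all 16 tumors. The part of these cell types in the differences between mice was not tested.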

How the data were processed

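RNA of 16 tumors (1 array each, Affymetrix Mouse 430A 2.0) was measured by the authors, who computed the deposited intensity values in dChip with a model of perfect match minus mismatch probes after invariant set normalization. Probe sets were named from the platform annotation, where 20380 carry 1 symbol, 691 several and 1555 none, and a gene was represented by its brightest probe set over the 16 tumors. Median intensities lay between 75.0 and 85.5 per array, and the number of arrays limits the precision. The genes, lists and motifs were chosen with earlier results of these data known. All 10 members were to be named and, from each list, the 3 genes with the largest matched difference.

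Intensities under 1 were raised to 1 (3.71% of values were at or under 1) and log2 values were taken. Fits were made with limma 3.58.1 (R 4.3.3) over 22626 probe sets and p-values adjusted by Benjamini-Hochberg: mouse as a block for the 13 matched tumors (8 residual degrees of freedom), mouse as a random block for all 16 (consensus correlation 0.238), and a moderated F test over 4 mice for the 9 metastases. The scripts' tests were checked on simulated data. The pairing is by mouse, as the labels give it. As a check, deviations of a metastasis and of its own primary tumor from the tissue means correlated at −0.00 to 0.40, the highest of the 4 for 6 of 9 metastases.

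Alternatives were quantile normalization, median centring, floors at the 10th (5.54) and 25th (24.3) percentiles, removal of dim probe sets (76.1% kept), a variance trend with robust prior, the methods' paired test, 1 mean ratio per mouse, no block, and each mouse, metastasis or primary tumor left out. The labels do not say whether tumors were processed in batches.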

Additional observations from a re-analysis of the deposited data

Results flagged for a closer look

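The liver metastasis of mouse 2 had a Ccnd1 intensity of 219, the lowest of the 9 metastases. On the log2 scale its gap to the next value was 0.589 of the range. The lymph node metastasis of mouse 3 had a Ccne1 intensity of 1.00, with a gap of 0.560 of the range on the log2 scale. This value lies at the floor of 1, which sets the size of the gap, and the probe set is dim. In 18 groups examined this way, chance picks out about 5%.

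In some genes all metastases of one mouse lay above their primary tumor and all of another mouse below it. The mean log2 ratio of Ccnb2 was 1.66 higher in mouse 1 than in mouse 4, where the ratio of the pleural metastasis was only −0.01. Between the same mice the mean log2 ratio of Ccnd1 was 0.87 higher in mouse 1 on its brightest probe set. On the other probe sets of Ccnd1 this split was not seen: mouse 4 averaged 0.37 on 1417419_at, and 2 metastases of mouse 1 lay below their primary tumor on 1448698_at. On its brightest probe set the mean log2 ratio of Ccnd2 was 1.51 higher in mouse 1 than in mouse 3. It differed by −1.37 between mouse 3 and mouse 4 (mouse 3 lower). These splits were also seen on 1430127_a_at and 1434745_at but not on every probe set. Mouse 3 averaged 0.05 on 1448229_s_at, and mouse 4 averaged −0.40 on 1416124_at. These differences in ratio were not tested, and each rests on 1 array per primary tumor. No share of all probe sets with such a split is given, so these genes cannot be set against it.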

How the results depend on the processing

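In the matched comparison the 9 genes gave 206 single values under alternatives, of which 2 changed sign. The count past an adjusted p of 0.05, 0 in the analysis reported, was 2 with dim probe sets left out and 2 with a variance trend (Ccna2 and Cdk1 in both), and 3 with the methods' paired test, which takes metastases of 1 mouse as independent and adds Ccne2. Without the replicate block, in an unpaired fit, the count at an unadjusted p under 0.01 was 3, as with the pairing. That count was between 2 and 3 when a mouse or a site was left out, and Ccne2 dropped out without mouse 3, mouse 4 or the lymph node metastases, while Ccnb2 came in without mouse 4. With 1 mean ratio per mouse it was 2 (Ccna2 and Ccne2, without Cdk1), and the adjusted p was 0.401 for Cdk1 and 0.353 for Ccna2. Ccnd2 ranged from −0.13 to 0.46 when a mouse or tumor was left out, negative without mouse 1 or mouse 4.

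Over all 16 tumors the count past the adjusted threshold lay between 1 and 3 when 1 tumor was left out, and Ccnd3 lay between −0.20 and 0.060, positive without the primary tumor of mouse 2 or mouse 4. Among the metastases the 3 calls fell to 0 to 3 when 1 metastasis was left out. In all 13 tumors with tissue in the model, which was chosen after seeing the data, 1 gene (Ccnd2) was called. The difference between G2/M and G1 means stayed above 0 at 0.87 to 1.35 with 1 mouse left out, and was 1.24 without Ccne1, a setting added after seeing the data. Causes of these changes were not tested, beyond the fewer tumors in each. Dim intensities limit Ccne1.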
